A study of Mus musculus with 6 samples.

Results

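Of 30 tested genes of the collagen, laminin and proteoglycan group, 1 was called higher in spinal cord of diseased G93A-SOD1 mice at 110 days. It was Fmod, the gene of the collagen-binding proteoglycan fibromodulin, and among all tested genes 1.38% were called higher. The call rests on 1 G93A-SOD1 array and on 1 of the 2 Fmod probe sets, and it was lost with no filter on low values. The group comprises every gene with a probe set of its own on the array whose symbol marks it as a collagen chain or a laminin chain, together with a set of named matrix glycoproteins and proteoglycans. It held 53 genes of the 8251 that the array names singly, namely 31 collagen chains, 9 laminin chains and 13 named genes. These 53 genes had 76 probe sets, and the probe set with the highest mean intensity stood for its gene. Tnr and Spp1, which belong to the definition, had no probe set with a single symbol here. Of the 53 genes, 30 exceeded the pooled median intensity of 79.7 on at least 1 array and were tested, and the other 23 are described by their values. Of the 30 tested genes, 2 (Col13a1 and Col26a1) exceeded that median on a G93A-SOD1 array alone.

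The study measured polyadenylated RNA of mouse spinal cord on 6 oligonucleotide arrays, 1 for each of 3 genotypes at 75 and 110 days of age. Nontransgenic mice were of the B6SJL strain, WT-SOD1 mice carried the unmutated SOD1 transgene (strain given with B6SJL at 75 days and not at all at 110 days), and G93A-SOD1 mice carried the mutant SOD1 of a familial form of amyotrophic lateral sclerosis (B6SJL-G93A-SOD1 at 75 days and B6SJL-G93A-SOD1H at 110 days). Each array held RNA of 4 spinal cords, and the submitters describe tremor and partial paralysis only in the G93A-SOD1 mice of 110 days. What drives the transgenes and which sex the mice were is not stated in the labels. The nontransgenic and WT-SOD1 arrays are called disease-free below, and the 2 of each age were the controls of the G93A-SOD1 array of that age. No genotype had a second array at the same age. The p-values below for G93A-SOD1 and for age are therefore set against the spread between disease-free arrays of different genotype. The lone G93A-SOD1 arrays were assumed to vary like the disease-free ones. Those for WT-SOD1 against nontransgenic cord are set against the change of that genotype difference with age, pooled over all probe sets. In whole cord, a change in the number of cells of a type and a change in RNA per cell cannot be told apart.

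The extracellular matrix of the cord lies in distinct places. Fibrillar collagens and the small leucine-rich proteoglycans that coat their fibrils belong mainly to the meninges, nerve roots and vessel walls. Type IV collagen, laminins, nidogen and the heparan sulphate proteoglycan perlecan build the basement membranes around vessels and under the pia. The tissue between the cells holds little collagen and is instead rich in hyaluronan with the lecticans versican, brevican and neurocan, which also form the perineuronal nets around large neurons, and astrocytes change their output of these proteoglycans after injury.

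The start regions of Fmod, which passed the test, and of Bgn, its relative of the same proteoglycan family that did not, are shown to set the 2 genes side by side. RefSeq's table, on GRCm38.p6, has such a region for 36 of the 53 genes. The sequences are the 250 bases before the annotated start, for Fmod at chr1:134037004-134037253 and for Bgn at chrX:73483351-73483600, both on the + strand. Capitals mark matches, on either strand, to the TATA box TATAAA, the CCAAT box CCAAT, the GC box GGGCGG or the AP-1 site TGANTCA.
Fmod: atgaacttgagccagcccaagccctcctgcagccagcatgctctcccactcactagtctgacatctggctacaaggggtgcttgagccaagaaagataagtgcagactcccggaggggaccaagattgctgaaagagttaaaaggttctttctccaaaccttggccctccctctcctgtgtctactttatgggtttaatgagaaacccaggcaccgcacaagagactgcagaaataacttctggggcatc
Bgn: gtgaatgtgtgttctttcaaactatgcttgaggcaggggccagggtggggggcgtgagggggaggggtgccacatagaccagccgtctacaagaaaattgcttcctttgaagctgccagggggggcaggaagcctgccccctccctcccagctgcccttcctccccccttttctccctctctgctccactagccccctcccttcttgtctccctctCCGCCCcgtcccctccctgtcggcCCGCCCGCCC
None of the 4 sets of letters occurs in the Fmod window. The Bgn window has the GC box 3 times, with first bases 34, 10 and 6 bases before the start, and the last 2 of these overlap. Of all 32851 windows of this length in the table, 12.4% hold the TATA box, 33.8% the CCAAT box, 32.7% the GC box and 6.75% the AP-1 site. The 36 genes of the group with such a region have 41 windows, some genes having more than 1. As counts of these 41 windows, the same letters occur in 8, 13, 22 and 1.

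The arrays were alike in overall level, with medians between 77.7 and 80.9, and between 24.6% and 25.9% of probe sets per array lay at or under 31, the floor to which lower values were raised. The Sod1 probe set read 1037 and 1498 on the nontransgenic arrays and 1583 to 1906 on the transgenic ones. Hox genes, which mark the position along the body axis, were measured on every array (11 genes, summed intensity 1806 to 2146), while the motor neuron gene Isl1 lay at the floor on all of them. Cerebellar marker genes (10 measured) summed to 6146 on the 75-day array of nontransgenic mice and 6650 on the 110-day array of WT-SOD1 mice, against 3445 to 4772 elsewhere, and bacterial spike-in controls averaged 631 and 834 against 351 to 457. Each age thus had 1 control array with the higher levels and 1 without.

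At 110 days 1 of the 30 tested matrix genes rose and 0 fell (limma with Benjamini-Hochberg adjustment over all 6737 tested probe sets). Among all 5199 tested genes 1.38% rose and 0.173% fell. An unadjusted p under 0.05 belonged to 1 member, again Fmod, and to 519 of the 5199 tested genes. The median log2 difference of the 30 genes was 0.08, beside -0.02 over all tested genes, and apart from Fmod their differences lay between -0.29 and 0.29. The 95% intervals assume that the lone G93A-SOD1 array varied like the disease-free ones. On that assumption, the interval of the difference lay within 2-fold either way for 29 of the 30 genes, and within 1.5-fold for 22. Among all 5199 tested genes this held for 4960 and 3695, a similar share, so these bounds are not particular to the matrix genes.

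**Figure D1:**
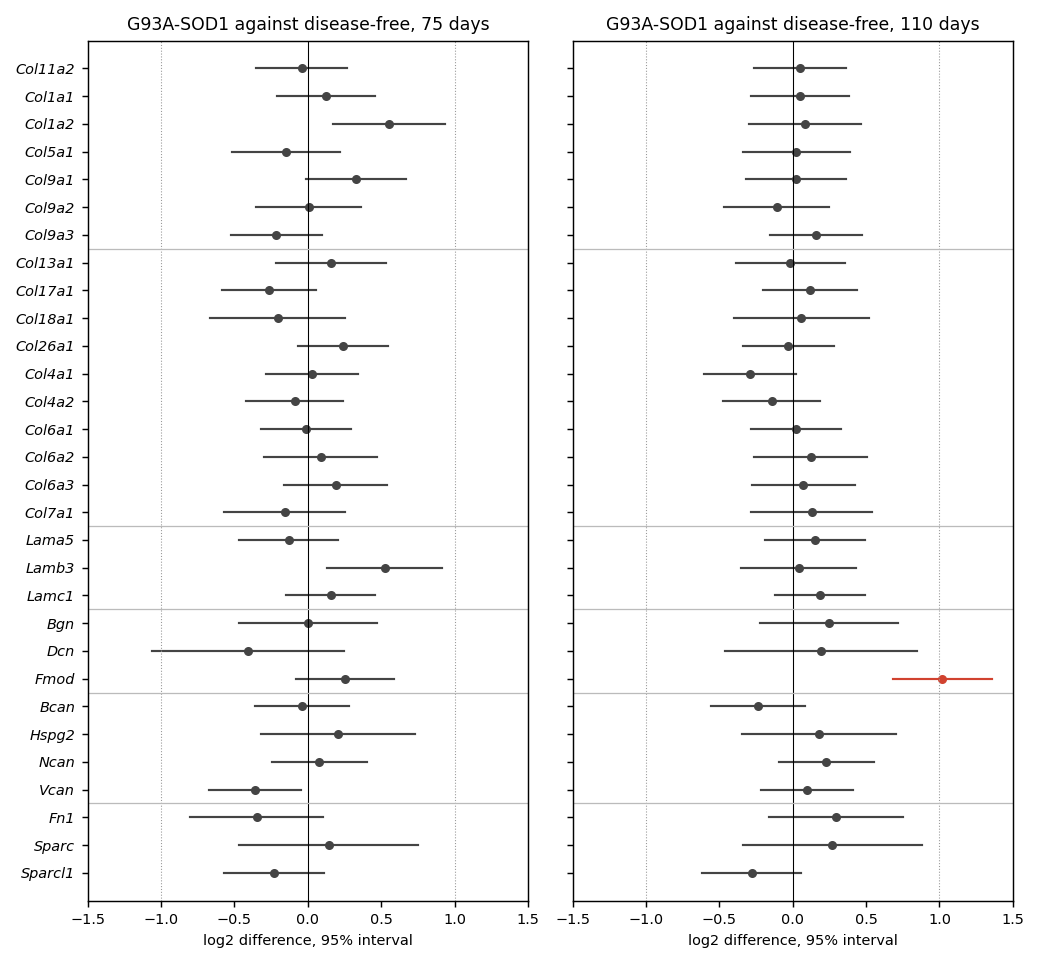
Log2 difference between the G93A-SOD1 array and the mean of the 2 disease-free arrays at 75 days (left) and 110 days (right) for the 30 tested matrix genes, with 95% intervals from the limma fit. Dotted lines mark a 2-fold difference, grey lines separate role groups (from the top: fibrillar and fibril-associated collagens, other collagens, laminins, small leucine-rich proteoglycans, hyaluronan-binding and basement membrane proteoglycans, other glycoproteins), and Fmod at 110 days, at 1.02, is the 1 value in red that passed the test.

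The small leucine-rich proteoglycans coat collagen fibrils and set their thickness and spacing. Fmod read 80.1 on the nontransgenic and 76.7 on the WT-SOD1 array at 75 days, 71.2 and 80.3 on the same genotypes at 110 days, 93.4 on the G93A-SOD1 array at 75 days and 153 on the G93A-SOD1 array at 110 days. On this probe set the 4 disease-free values lay close together, and both G93A-SOD1 arrays were above all of them. At 110 days the G93A-SOD1 level of Fmod was 2.03-fold that of the controls (log2 difference 1.02 ± 0.14 SE, 95% interval 0.68 to 1.35, adjusted p = 0.0166 by limma). With no filter on low values, where 12422 probe sets were tested, the adjusted p was 0.261. A second Fmod probe set, of a type that can bind other transcripts (_r_at), stayed under the median and read 50.2 to 58.2 on the disease-free arrays and 45.95 and 53.1 in G93A-SOD1 cord at 75 and 110 days, below the disease-free range and then inside it. The 110-day rise was thus seen on 1 of the 2 probe sets of the gene.

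Bgn, encoding biglycan, read 190 and 223 on the nontransgenic and WT-SOD1 arrays at 75 days, 145 and 193 at 110 days, and 206 and 198 in G93A-SOD1 cord at 75 and 110 days. The G93A-SOD1 values lay inside the disease-free range at both ages, and the 110-day difference of 0.25 ± 0.20 SE did not pass (adjusted p = 0.846 by limma). A second tested Bgn probe set read 99.98 to 114 on the disease-free arrays, and 124 and 108 in G93A-SOD1 cord, above the range at 75 days and inside it at 110 days (adjusted p = 0.759 and 1.00 by limma). Dcn, encoding decorin, ranged more widely: 153 and 177 on the disease-free arrays at 75 days, 115 and 190 at 110 days, and 124 and 169 in G93A-SOD1 cord at 75 and 110 days. The nontransgenic 110-day array was lowest for Fmod, Bgn and Dcn alike, and neither G93A-SOD1 value of Dcn left the disease-free range. Lum, encoding lumican and the chromosomal neighbour of Dcn, was not tested and read 32.4 to 36.7 over the 6 arrays, just above the floor.

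**Figure D2:**
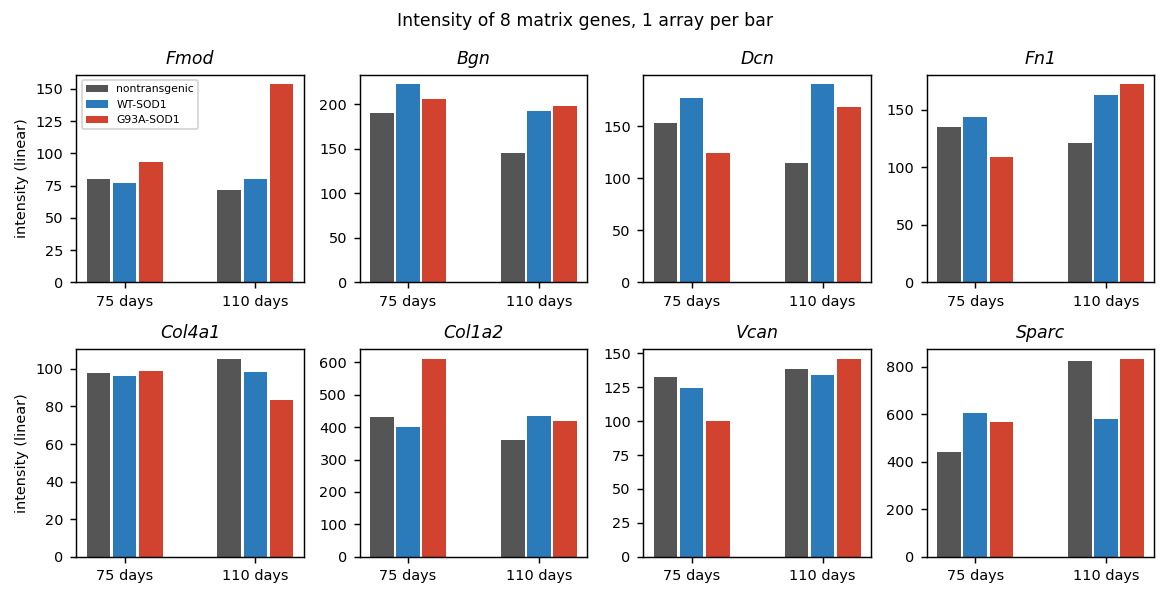
Deposited linear intensity of 8 matrix genes by age and genotype, 1 array per bar and no error bars because no genotype has a second array of an age. The Fmod bar of G93A-SOD1 cord at 110 days, at 153, stands above the other 5 at 71.2 to 93.4, while Dcn, Bgn and Sparc differ among the disease-free arrays themselves.

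Fibrillar and fibril-associated collagens had 15 members, of which 7 were tested and 0 passed at either age. At 110 days their differences lay between -0.11 and 0.16, with a median of 0.05. Col1a1, a chain of type I collagen, the main collagen of connective tissue, read 307 and 288 on the disease-free arrays at 75 days, 273 and 303 at 110 days, and 324 and 297 in G93A-SOD1 cord at 75 and 110 days. The 110-day value lay inside the disease-free range, and the 95% interval of the difference ran from -0.28 to 0.38. Col1a2, the partner chain, read 432, 402, 360 and 436 on the disease-free arrays (nontransgenic and WT-SOD1 at 75 days, then at 110 days), 419 on the G93A-SOD1 array at 110 days and 611 on that at 75 days. The 75-day value was the highest of all 6, with a difference of 0.55 ± 0.16 SE that did not pass (unadjusted p = 0.0106, adjusted p = 0.460 by limma). Its probe set is of the _r_at type, and the other Col1a2 probe set read 127 on that array against 129 and 135 on the disease-free arrays of the age.

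Type IX collagen, which decorates the surface of other collagen fibrils, had all 3 chains tested. Col9a1 read 208 and 198 on the disease-free arrays at 75 days, 185 and 209 at 110 days, and 255 and 200 in G93A-SOD1 cord at 75 and 110 days. Col9a2 read 166 to 191 on the disease-free arrays and 183 and 165 in G93A-SOD1 cord at 75 and 110 days. Col9a3 read 128 to 143 and then 122 and 147. The 3 chains thus did not move together: at 75 days Col9a1 was above the disease-free range and Col9a3 below it, and at 110 days Col9a3 was above it and Col9a2 below it by 0.01 log2 units. None of these differences passed the test, the largest being that of Col9a1 at 75 days (0.33 ± 0.14 SE, adjusted p = 0.515 by limma). Col5a1, whose chain starts type I fibrils, had a 110-day difference of 0.03 (95% interval -0.34 to 0.39), and Col11a2 of 0.05 (-0.26 to 0.36).

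Basement membrane and other collagens had 16 members, of which 10 were tested and 0 passed. Col4a1 and Col4a2 encode the 2 chains of the type IV collagen of vessel basement membranes. In RefSeq (GRCm38.p6) they lie head to head, and their start windows of 300 bases, chr8:11312777-11313076 on the - strand and chr8:11312555-11312854 on the + strand, share 78 bases. Col4a1 read 97.6 and 96.3 on the disease-free arrays at 75 days, 105 and 98.2 at 110 days, 99.0 on the G93A-SOD1 array at 75 days and 83.2 on that at 110 days. Col4a2 read 176 and 174 on the disease-free arrays at 75 days, 166 and 186 at 110 days, and 164 and 159 in G93A-SOD1 cord at 75 and 110 days. Both genes were thus lowest on the 110-day G93A-SOD1 array, Col4a1 by 0.21 and Col4a2 by 0.06 log2 units under the nearest disease-free array. Neither difference passed (Col4a1 -0.29 ± 0.13 SE, adjusted p = 0.535, and Col4a2 -0.14 ± 0.14 SE, adjusted p = 0.905, by limma). The Col4a1 interval, -0.60 to 0.02, leaves room for a fall of up to 1.5-fold. Endothelial marker genes (12 measured, 6 tested) had 0 calls and a median of -0.08 at 110 days, and summed to 1485 on that array against 1497 to 1681 on the disease-free ones. Among them Tek lay at the floor on every array. The part of vessel cell number in the type IV values was not tested.

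The 3 chains of type VI collagen, which forms beaded filaments near basement membranes, stayed near the disease-free values. Col6a1 varied least of all tested members, from 196 to 204 over the 6 arrays. Col6a2 read 70.0 to 85.8 on the disease-free arrays and 82.7 and 84.5 in G93A-SOD1 cord at 75 and 110 days, and Col6a3 read 76.8 to 87.7 and then 93.6 and 87.7. At 110 days the differences were 0.02, 0.12 and 0.07. Col17a1, a transmembrane collagen known from skin attachments, read 93.9 to 102 on the disease-free arrays, 83.5 on the G93A-SOD1 array at 75 days and 106 on that at 110 days. It was therefore below the disease-free range at the first age and above it at the second, by 0.17 and 0.06 log2 units. Col18a1, the source of the fragment endostatin, read 162 to 212 on the disease-free arrays and 168 and 192 in G93A-SOD1 cord, inside the range at both ages, and Col7a1 (112 to 141, then 115 and 134) did the same. Col26a1 read 65.6 to 73.2 on the disease-free arrays, 86.1 on the G93A-SOD1 array at 75 days and 65.5 on that at 110 days, and Col13a1 67.5 to 79.4, then 81.7 and 70.6. These are the 2 genes that entered the test through the 75-day G93A-SOD1 array alone.

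Laminins are cross-shaped trimers of an alpha, a beta and a gamma chain that anchor cells to basement membranes. Of 9 chains 3 were tested and 0 passed. Lamc1, the gamma chain found in most laminins, read 272 and 277 on the disease-free arrays at 75 days, 247 and 251 at 110 days, and 306 and 283 in G93A-SOD1 cord at 75 and 110 days. Both G93A-SOD1 arrays were above all 4 disease-free arrays, by 0.14 and 0.03 log2 units, with differences of 0.16 and 0.18 (adjusted p = 0.716 and 0.782 by limma). Lama5, an alpha chain of vessels, read 93.2 to 112 on the disease-free arrays and 98.8 and 110 in G93A-SOD1 cord, inside the range at both ages.

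Lamb3, a beta chain best known from epithelia, read 102, 105, 95.1 and 119 on the disease-free arrays (nontransgenic and WT-SOD1 at 75 days, then at 110 days) and 149 and 109 in G93A-SOD1 cord at 75 and 110 days. The 75-day value was the highest, at a difference of 0.52 ± 0.17 SE that did not pass (unadjusted p = 0.0157, adjusted p = 0.494 by limma). The Lamb3 and Lamc1 probe sets are of the _f_at type, which can bind related transcripts, and the other Lamb3 probe set read 59.1 on that array against 60.6 and 65.7 on its controls. The other Lamc1 probe set lay at or under the floor on every array.

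The lecticans of the group (brevican, neurocan and versican) and perlecan were all tested, 4 of 4, and 0 passed. Bcan, encoding brevican, a lectican specific to the nervous system, read 656 and 631 on the disease-free arrays at 75 days, 574 and 527 at 110 days, and 626 and 467 in G93A-SOD1 cord at 75 and 110 days. On this probe set all 3 genotypes were lower at 110 than at 75 days, and the G93A-SOD1 array was then the lowest of the 6, at a difference of -0.24 ± 0.14 SE (adjusted p = 0.665 by limma). A second tested Bcan probe set, of the _f_at type, read 84.4 to 111 on the disease-free arrays and 70.3 and 81.3 in G93A-SOD1 cord at 75 and 110 days. There the G93A-SOD1 value was lowest at 75 days and higher at 110 days (differences -0.50 and -0.16, adjusted p = 0.495 and 0.934 by limma), so the 2 probe sets differ in the age at which Bcan was lowest. Ncan, encoding neurocan, made by neurons and by astrocytes after injury, read 88.9 and 89.3 on the disease-free arrays at 75 days, 99.2 and 89.7 at 110 days, and 94.1 and 111 in G93A-SOD1 cord. It was highest on the 110-day G93A-SOD1 array, at 0.23 ± 0.14 SE (adjusted p = 0.691 by limma). On the probe sets with the highest means, brevican and neurocan thus stood on opposite sides of the disease-free range at 110 days, each with an interval that includes 0. A second Ncan probe set was not tested and read near the floor, at 35.4 to 37.7 on the disease-free arrays. In G93A-SOD1 cord it read 35.1 at 75 days, below that range, and 36.1 at 110 days, inside it.

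Vcan, encoding versican, read 133 and 124 on the disease-free arrays at 75 days, 139 and 134 at 110 days, and 100.2 and 146 in G93A-SOD1 cord at 75 and 110 days. It was thus the lowest of the 6 arrays at the first age and the highest at the second. The 75-day difference was -0.36 ± 0.13 SE (unadjusted p = 0.0311, adjusted p = 0.495 by limma) and the change between ages 0.46 (unadjusted p = 0.0458, adjusted p = 0.793). Hspg2, encoding perlecan, read 251 and 204 on the disease-free arrays at 75 days, 178 and 246 at 110 days, and 261 and 237 in G93A-SOD1 cord. Its disease-free range of 0.50 log2 units exceeded either difference (0.21 and 0.18).

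The remaining glycoproteins had 3 of 5 genes tested and 0 calls. Fn1, encoding fibronectin, which reaches the cord from plasma as well as from vessel cells and fibroblasts, read 135 and 144 on the disease-free arrays at 75 days, 121 and 163 at 110 days, and 109 and 172 in G93A-SOD1 cord at 75 and 110 days. It was the lowest of the 6 at the first age and the highest at the second. The differences were -0.35 ± 0.19 SE and 0.29 ± 0.19 SE (adjusted p = 0.590 and 0.744 by limma), and the change between them 0.64 (adjusted p = 0.794). Without the WT-SOD1 110-day array the 110-day difference was 0.51, with an adjusted p of 0.0499 by limma, and without the nontransgenic 110-day array it was 0.08, with an adjusted p of 0.873. Each of these fits sets 1 array against 1 at that age, and the first called 591 probe sets of the whole table in place of 102.

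Sparc, encoding a collagen-binding protein of vessel cells and glia, ranged most widely among the disease-free arrays: 440 on the nontransgenic and 606 on the WT-SOD1 array at 75 days, 826 and 579 at 110 days. The G93A-SOD1 arrays read 570 and 834, and the second of these was 0.013 log2 units above the nontransgenic array of its age. The 2 disease-free arrays with the higher spike-in and cerebellar marker levels averaged 0.49 log2 units below the other 2 for Sparc. Most of the group went the other way: 24 of the 30 tested genes were higher on those 2 arrays, with a median of 0.12. Over all 5199 tested genes 2272 were higher there, with a median of -0.03. The part of these levels in the spread of Sparc or of the group was not tested. Sparcl1, encoding hevin, an astrocyte protein that promotes synapse formation, read 1854 and 1739 on the disease-free arrays at 75 days, 1917 and 2157 at 110 days, and 1530 and 1676 in G93A-SOD1 cord. It lay below all disease-free arrays at both ages, by 0.19 and 0.05 log2 units, at differences of -0.23 and -0.28 (adjusted p = 0.628 and 0.612 by limma).

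**Figure D3:**
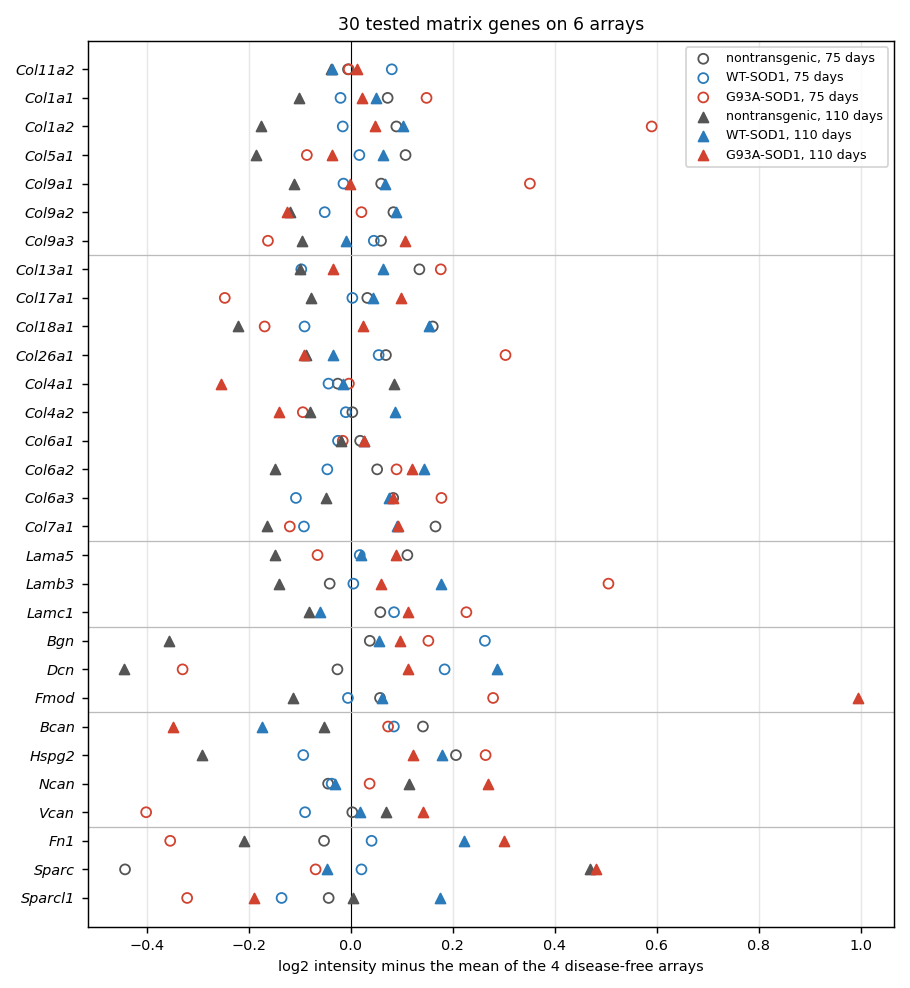
Log2 intensity of each tested matrix gene on each array minus the mean of its 4 disease-free arrays, with open circles for 75 days, filled triangles for 110 days and colour for genotype; grey lines separate the role groups. The filled grey triangles of the nontransgenic 110-day array form the left edge for 16 of the 30 genes, and Fmod on the 110-day G93A-SOD1 array stands 0.93 above its highest disease-free array.

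At 110 days 23 of the 30 differences were above 0 (2304 of all 5199 tested genes), and how many were so differed between the control arrays. The nontransgenic 110-day array was the lowest of the 6 for 16 of the 30 genes and the highest for 1, whereas over all tested genes it was the lowest for 26.3% and the highest for 31.4%. As the lowest array, the others held 2 of the 30 genes (nontransgenic, 75 days, 10.5% of all tested genes), 2 (WT-SOD1, 75 days, 6.27%), 0 (WT-SOD1, 110 days, 10.8%), 5 (G93A-SOD1, 75 days, 28.7%) and 5 (G93A-SOD1, 110 days, 17.5%). As the highest they held, in that order, 5 (10.1%), 2 (11.8%), 6 (12.6%), 9 (20.5%) and 7 (13.6%). The nontransgenic 110-day array was singled out after these counts were seen. Against this array the median of the 30 differences was 0.15, with 24 above 0. Against the WT-SOD1 array of the age it was -0.03, with 13 above 0. All 5199 tested genes had a median of -0.03 against either, with 2383 above 0 against the nontransgenic and 2268 against the WT-SOD1 array. Dcn (0.56 against -0.17) and Hspg2 (0.41 against -0.06) were among several genes that differed in sign between the controls, while Fmod stood at 1.11 and 0.93.

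**Figure D4:**
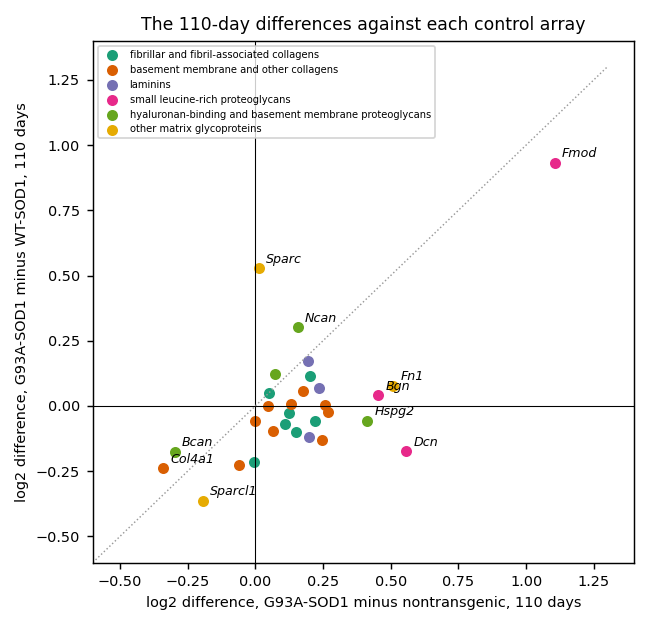
Log2 difference at 110 days of the G93A-SOD1 array from the nontransgenic array (horizontal) and from the WT-SOD1 array (vertical), 1 point per tested matrix gene, coloured by role, with the dotted line marking equal differences. Fmod, at 1.11 and 0.93, stands apart on both axes, whereas Dcn, Hspg2, Bgn and Fn1 lie between -0.17 and 0.08 on the vertical axis and between 0.41 and 0.56 on the horizontal one.

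By position alone, 9 of the 30 genes lay above all 4 disease-free arrays at 110 days and 6 below, where all tested genes had 16.6% and 26.7%. Col6a3, whose excess was under 0.01 log2 units, Lamc1 and Sparc were 3 of the 9, and the others were Fmod, Ncan, Fn1, Vcan, Col17a1 and Col9a3. The 6 below were Col4a1, Bcan, Col4a2, Sparcl1, Col9a2 and Col26a1. The shortfalls of Col9a2 and Col26a1 were also under 0.01 log2 units.

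At 75 days, before the described symptoms, 0 of the 30 genes passed the limma test in either direction, as did 0% of all tested genes. Unadjusted p-values under 0.05 belonged to 3 members (Col1a2, Lamb3 and Vcan) and to 462 of the 5199 tested genes. The median difference was 0.003, with 16 genes above 0 and 14 below. There were 10 genes above all disease-free arrays and 6 below them, beside 23.5% and 34.5% of all tested genes. Among the 10 were Col13a1 and Col26a1, which entered the test through the 75-day G93A-SOD1 array alone. The filter thus fixed their place above the disease-free range. The largest excesses over the highest disease-free array were those of Col1a2 (0.49), Lamb3 (0.33), Col9a1 (0.28), Col26a1 (0.23), Fmod (0.22) and Lamc1 (0.14), and the largest shortfalls those of Vcan (-0.31), Sparcl1 (-0.19), Col17a1 (-0.17) and Fn1 (-0.14).

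The change of the G93A-SOD1 difference from 75 to 110 days was tested directly, and 0 of the 30 genes passed (0.442% of all tested genes did so upward and 0.0385% downward). Fmod had the largest change, from 0.25 to 1.02 (change 0.77, unadjusted p = 0.00645, adjusted p = 0.378 by limma). On the tested Fmod probe set the rise therefore passed at 110 days, and a growth between the ages did not.

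Age without disease gave 0 calls among the 30 genes (0.0192% of all tested genes rose and 0% fell), with 0 at an unadjusted p under 0.05. The genes that differed the same way in both disease-free genotypes numbered 4 upward and 6 downward, where all tested genes had 20.1% and 18.5%. The 4 upward were Sparcl1, Vcan, Ncan and Col4a1, at mean differences of 0.18, 0.09, 0.08 and 0.07. Among the 6 downward were Bgn (-0.30), Bcan (-0.23) and Lamc1 (-0.14). The nontransgenic genotype alone had a median of -0.16 between its ages and the WT-SOD1 genotype 0.08, so the 2 did not run in parallel. Over all tested genes these medians were 0.03 and -0.02. Higher spike-in and cerebellar marker levels were found on the 75-day nontransgenic and the 110-day WT-SOD1 array. Their part in this difference was not tested.

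WT-SOD1 against nontransgenic cord likewise gave 0 calls (0.0962% of all tested genes rose and 0% fell), with 1 gene, Dcn, at an unadjusted p under 0.05. Dcn was higher on the WT-SOD1 array at both ages (177 against 153 and 190 against 115, mean log2 difference 0.47, adjusted p = 1 by limma). Bgn, Dcn and Fn1 were among the 6 genes that were higher at both ages, at 0.32, 0.47 and 0.26, and Bcan (-0.09), Vcan (-0.07) and Col4a1 (-0.06) were the 3 that were lower at both. All tested genes had 17.9% and 14.6% in these directions.

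The 23 genes that were not tested read between 8.91 and 78.8. Of these, 7 lay at or under the floor on all 6 arrays and give no difference: the collagen genes Col4a3, Col5a2, Col10a1, Col14a1 and Col22a1, the laminin chain Lamb1, and Nid1, the basement membrane linker nidogen. Another 2, Col4a5 and Col11a1, were under it on some arrays, and 14 were above it on all. Tnc, encoding tenascin C, a glycoprotein of wounds and developing tissue, read 45.5 and 40.7 on the disease-free arrays at 75 days, 40.01 and 44.5 at 110 days, and 46.3 and 52.6 in G93A-SOD1 cord. Lamb2, the beta chain of synaptic and vessel laminins, read 39.4 to 45.2 on the disease-free arrays and 41.1 and 49.7 in G93A-SOD1 cord. Both were highest on the 110-day G93A-SOD1 array, with differences of 0.32 each, the largest of the untested genes. Col3a1, the fibrillar collagen of vessels and scars, read 63.8 to 73.5, and Lama1, Lama2, Lama3 and Lama4 read between 38.4 and 61.8.

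Proteins that make, cut, bind or signal to the matrix were read from 6 further lists with 110 genes on the array, of which 54 were tested. At 110 days 2 of the 54 rose and 0 fell, where 1.38% of all tested genes rose and 0.173% fell. Plat, encoding tissue plasminogen activator, a protease that starts matrix breakdown through plasmin, read 227 to 278 on the disease-free arrays, 254 on the G93A-SOD1 array at 75 days and 554 on that at 110 days (2.36-fold, log2 difference 1.24 ± 0.15 SE, adjusted p = 0.00846 by limma). Itgb5, an integrin chain that binds vitronectin, read 291 to 331, 314 and 579 (1.86-fold, 0.90 ± 0.14 SE, adjusted p = 0.0301 by limma). In both cases the 110-day G93A-SOD1 array alone stood apart.

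The other matrix lists held no call. Matrix glycoproteins outside the group (9 tested) had a median of 0.15, with thrombospondin 2 (Thbs2) at 0.79 (adjusted p = 0.0882 by limma) and matrilin 4 (Matn4) at 0.68 (adjusted p = 0.120). Collagen modifying and crosslinking genes (7 tested) had a median of 0.16, with Plod3 at 0.31 and Bmp1 at 0.28, and Lox lay at the floor. Other proteoglycans and their synthesis (10 tested) had 0.04, with Chst2 at 0.45 and Spock2 at -0.36. TGF-beta signalling (7 tested) had -0.01, with Tgfb1 at 0.65 (adjusted p = 0.181) and Tgfb3 at -0.21. The lists that held Plat (proteases and inhibitors, 8 tested) and Itgb5 (receptors, 13 tested) had medians of 0.03 and 0.18. None of the 54 genes passed limma's test at 75 days, for the change between ages, for age or for WT-SOD1. Of all tested genes, 0% passed at 75 days, and 0.442% upward and 0.0385% downward for the change. For age 0.0192% rose, and for WT-SOD1 0.0962% rose. Unadjusted p-values under 0.05 belonged to 10 of the 54 at 110 days (519 of all 5199 tested genes), 6 at 75 days (462), 9 for the change (308), 2 for age (158) and 0 for WT-SOD1 (55).

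Of the markers of cells that could carry these transcripts, some differed at 110 days and others did not. Among all tested genes 1.38% rose and 0.173% fell at this age. Microglia and macrophage genes (18 measured, 14 tested) rose in 13 cases at 110 days and summed to 10494 on the 110-day G93A-SOD1 array against 2572 to 3127 on the other 5, with Fcer1g and Ptprc at the floor throughout. Astrocyte genes (9 measured, 8 tested) rose in 2 cases, Gfap and Fabp7, and summed to 13474 against 9006 to 10236. Fibroblast and meningeal genes (16 measured, 10 tested) rose in 2 cases, Igfbp2 (3.19-fold) and S100a4 (2.23-fold), with a median of 0.01 and a sum of 6407 against 6660 to 7470, and Dpt, Foxc1 and Fap lay at the floor on every array. Mural cell genes (9 measured, 3 tested) rose in 1 case, Mylk (2.78-fold), and summed to 875 against 533 to 574, with Myh11, Pdgfrb and Abcc9 at the floor. Schwann cell genes (4 tested), cartilage and bone genes (2 tested) and skeletal muscle genes (5 tested) had 0 calls at 110 days, and of the oligodendrocyte, neuron, blood, ependymal and motor neuron genes only the neurofilament gene Nefm passed, falling. The part of any of these cell types in the rise of Fmod was not tested.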

How the data were processed

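Each array held the RNA of 4 spinal cords of 1 genotype and age, hybridised once. Each probe set has 1 linear intensity per array, as deposited by the authors. Their probe summary and array scaling are not given in the sources used here. Of 12488 rows, 66 control probe sets were left out of the tests. Array medians differed by under 0.1 log2 units, so values were used as deposited. Values under the 25th percentile, 31, were raised to it, log2 was taken, and probe sets above the pooled median on at least 1 array were tested. Symbols came from the platform annotation: 1 symbol was listed for 10833 probe sets, several for 396 and none for 1193, and all 53 genes matched the reference table by Entrez identifier. A lettered suffix such as _f_at or _r_at marks probe sets that can bind other transcripts, which applies to 8 of the 53 genes, 5 of them tested (Col13a1, Col18a1, Col1a2, Lamb3 and Lamc1).

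limma 3.58.1 in R 4.3.3 (lmFit, eBayes) was fitted to all 6737 tested probe sets with 4 means (disease-free and G93A-SOD1 at each age) on 2 residual degrees of freedom, with Benjamini-Hochberg adjustment at 0.05 over all of them. For WT-SOD1 against nontransgenic cord, a fit to the 4 disease-free arrays included an age effect and left 1 degree of freedom; it used 1 pooled spread for all probe sets. SE is limma's moderated standard error. The scripts were tested on simulated data. The number of arrays limits the precision.

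Genes with every value given were those past a test, those farthest outside the disease-free range at either age, those with the steadiest differences by age or WT-SOD1, the largest 110-day difference of each role group, and Fn1, Sparc, Sparcl1, Tnc, Vcan, Bcan, Ncan, Col4a1 and Lamb2. The other genes given by value complete a family. In marker and pathway lists, genes past the test were named, and otherwise up to 2 per list by size of difference, besides those at the floor. The members and lists were chosen with earlier results of these data known. Alternatives covered scaling, floor, filter, choice of probe set, added terms and left-out arrays.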

Additional observations from a re-analysis of the deposited data

How the results depend on the processing

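Results were recomputed with arrays scaled to 1 median or quantile-normalized, with the floor at the 10th or 40th percentile, with no filter or a filter on the mean level, with any probe set of a gene, with a term for the spike-in level or for WT-SOD1, and without each disease-free array. The count of matrix genes called at 110 days stayed at 1, again Fmod, except that it was 0 with no filter. It ranged from 1 to 2 when single disease-free arrays were left out, the second gene being Fn1 without the WT-SOD1 110-day array (without the nontransgenic one its adjusted p was 0.873). The log2 difference of Fmod lay between 0.93 and 1.11 throughout and passed in 11 of 12 tested alternatives (adjusted p from 0.00203 to 0.261). The counts for 75 days, for the change between ages, for age and for WT-SOD1 were 0 under each alternative run. Over the whole table, 102 probe sets passed at 110 days, against 42 with no filter, 66 with the floor at the 40th percentile, 266 with the spike-in term, 591 without the WT-SOD1 and 194 without the nontransgenic 110-day array. At 75 days 0 passed, against 50 with no filter, 54 with the WT-SOD1 term, 1 with the spike-in term and 13 to 116 without single disease-free arrays. Of 526 recomputed differences of named genes, 4 had the other sign, 3 of Sparc and 1 of Bcan, all at 75 days and none past the test. This count cannot measure robustness, because many of the alternatives could not move a difference. A changed floor or filter left the differences of genes above the floor as they were. Leaving out a disease-free array of the other age did the same for each G93A-SOD1 difference. With only nontransgenic or only WT-SOD1 controls no residual was left, so these gave differences and no count. By replicate number, no paired analysis was possible because each genotype and age had 1 array; age was a term in the fit of WT-SOD1 against nontransgenic cord. Signal near the floor limits what can be seen for the 23 untested genes.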
